A study of Rattus norvegicus with 9 samples.

Results

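The endothelin system of the rat spinal cord was examined through 6 genes: Ednrb and Ednra, which encode the endothelin B and A receptors, Edn1 and Edn3, which encode the peptides endothelin-1 and endothelin-3, and Ece1 and Ece2, which encode endothelin-converting enzymes. The genes were chosen by symbol, with earlier results of these data known. All 6 were found among the 34890 loci of the expression table, of which 32850 carried a gene name. RNA from L3-L6 spinal cord of wild-type Sprague Dawley rats had been sequenced in 3 groups of 3 rats. The JA group had a sham operation and received saline. The SNI group had spared nerve injury, in which branches of the sciatic nerve are ligated and cut, and received saline. The PLM group had the same injury and was dosed by mouth with paeoniflorin (20.65 mg/mL) and liquiritin, the plant glycosides of the study's medium dose. The labels give liquiritin as 3.98, 3.99 and 3.100 mg/mL for PLM replicates 1, 2 and 3, whereas the study's methods give 3.98 mg/mL for the whole group. No group received the drugs without the injury, so PLM was compared with injured rats (the drug question), SNI with sham-operated rats (the injury question), and PLM with sham-operated rats. Values are TPM (a share of the library's transcripts, scaled by transcript length), so levels can be compared between genes. The depth behind them is unknown.

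Endothelins are short peptides that are cut from inactive precursors, called big endothelins, by membrane-bound converting enzymes. They act on G protein-coupled receptors: the A receptor, best known from vascular smooth muscle, where it drives contraction, and the B receptor, which in the central nervous system is abundant on astrocytes and which also clears the peptides. Endothelin signaling is studied in injured nervous tissue because astrocytes respond to it.

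The receptor promoters are shown first, since the receptor genes are described first in each comparison below. They come from RefSeq on the GRCr8 rat assembly and run from 250 bases before to 50 bases after the annotated start. The table matched 5 of the 6 genes by symbol, and Edn3 had no entry. The build behind the expression table is not stated for rat, so these positions belong to GRCr8 alone. The Ednrb window lies at chr15:87086716-87087015 on the minus strand and the Ednra window at chr19:47137674-47137973 on the plus strand. Capitals mark the E-box (CANNTG).
Ednrb: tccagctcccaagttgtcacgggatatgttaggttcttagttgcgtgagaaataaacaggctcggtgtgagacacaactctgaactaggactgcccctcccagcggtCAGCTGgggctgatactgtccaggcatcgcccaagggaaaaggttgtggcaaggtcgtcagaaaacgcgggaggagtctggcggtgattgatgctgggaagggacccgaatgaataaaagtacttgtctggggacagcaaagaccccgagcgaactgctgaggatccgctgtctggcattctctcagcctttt
Ednra: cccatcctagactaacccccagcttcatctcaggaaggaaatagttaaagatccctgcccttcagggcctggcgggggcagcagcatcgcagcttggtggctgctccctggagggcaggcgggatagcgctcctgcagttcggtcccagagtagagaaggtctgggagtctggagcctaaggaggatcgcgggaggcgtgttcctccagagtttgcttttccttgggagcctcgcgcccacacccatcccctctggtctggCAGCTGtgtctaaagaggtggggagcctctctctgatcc
Both windows held a single E-box with the same letters, at -143 from the start in Ednrb and at +12 in Ednra, and an E-box of any kind was present in 72.1% of the 33469 promoters searched. Neither held TATAAA (14.2% of promoters), GGGCGG (33.1%), ACAAAG (18.8%) or ACAATG (13.2%) on either strand. GC content was 54.0% for Ednrb and 60.7% for Ednra, against a median of 51.7% over all promoters. The motifs searched therefore differed only in position between the receptors. Among the other genes, the Edn1 window held TATAAA at -110 and ACAATG on the reverse strand at -168, Ece1 held GGGCGG on the reverse strand at -86 and -52, and Ece2 held GGGCGG at -56 and an E-box at -80. A match is a string of letters and does not show that a factor binds there.

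Markers of the cells expected in cord were present in every library. None of 16 astrocyte, 12 neuron, 10 oligodendrocyte, 9 microglia or 11 endothelial markers was at 0 in any sample. The 10 loci carrying the 8 listed lumbar Hox names summed to between 80.5 and 117 TPM, although 4 of the 10, Hoxd11 included, were at 0 in at least 1 sample. Some libraries stood apart. Summed Schwann cell markers, which belong to nerve roots rather than cord, ran from 130 to 7918 TPM within JA, from 585 to 4512 within SNI and from 280 to 3321 within PLM. JA replicate 3 had the highest Schwann sum and, at 5193 TPM, the lowest astrocyte sum of its group, whose others were at 7246 and 8350. JA replicate 2 had the lowest neuronal sum, 3064 TPM against at least 3634 elsewhere. The 13 mitochondrial protein genes took 32.8%, 31.3% and 31.9% of the TPM in PLM but 23.7%, 26.1% and 24.1% in SNI. In JA they took 25.3%, 32.8% and 29.3%. Since TPM sums to a fixed total, other genes are lowered by such a rise. The median log2 fold change of all loci in PLM versus SNI was -0.21 as deposited and 0.04 after each sample was centred on its median, so both scales are given below.

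Ednrb had the highest mean of the 6 genes, 20.03 TPM over the 9 samples, followed by Ece1 at 16.4, Ece2 at 10.37, Edn1 at 3.86, Edn3 at 3.74 and Ednra at 2.25. Among the 15503 loci that averaged 1 TPM or more, Ednrb ranked 4772 and Ednra 13276. The order of some neighbours changed between samples. Ednrb exceeded Ece1 in 3 of 3 SNI, 2 of 3 JA and 0 of 3 PLM samples, whereas Ece1 exceeded Ece2 in all 9. Edn1 and Edn3 were not separable in level, with Edn1 the higher in 1 JA, 3 SNI and 2 PLM samples. Edn2, the remaining endothelin peptide gene, was listed at 0 in 7 of the samples, at 0.19 TPM in SNI replicate 1 and at 0.36 in PLM replicate 3, and was too low to be tested.

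**Figure D1:**
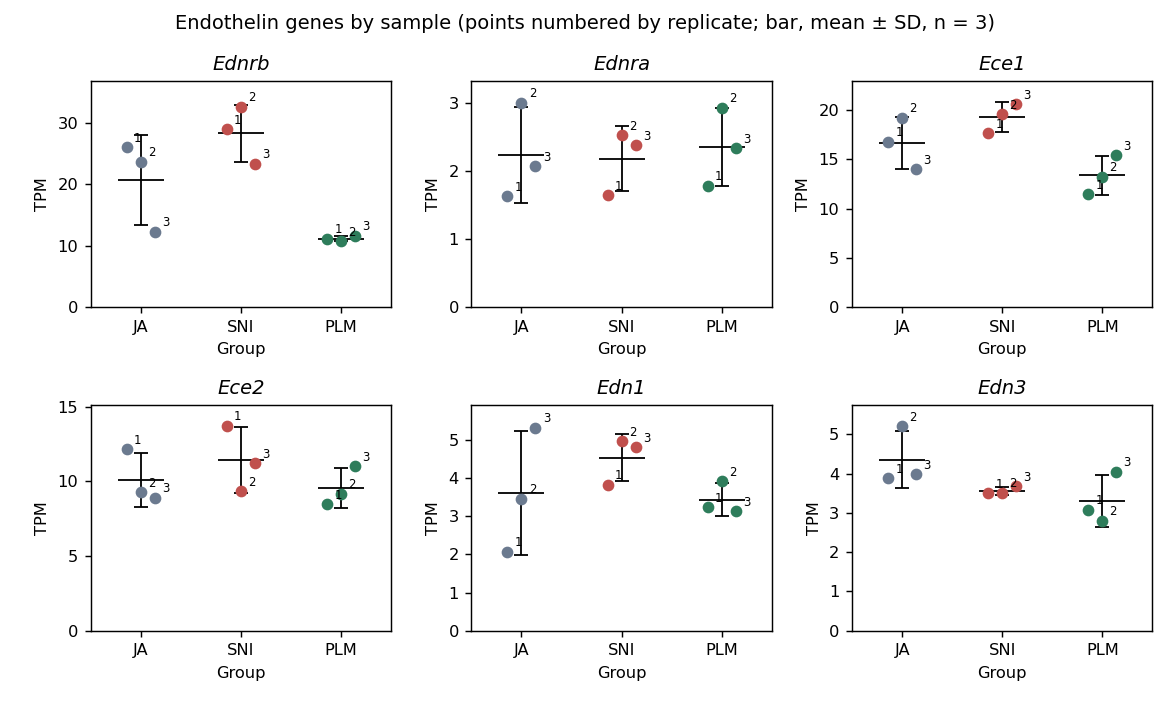
Level of each endothelin gene (vertical axis, TPM, from 0) in the JA, SNI and PLM groups, with points numbered by replicate and black bars for the mean ± SD of 3 rats. The 3 PLM points of Ednrb sit between 10.73 and 11.58, below every SNI and JA point, while the groups of Ednra overlap.

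The endothelin B receptor gene fell in PLM. Ednrb stood at 28.94, 32.58 and 23.33 TPM in SNI and at 11.13, 10.73 and 11.58 TPM in PLM. No PLM value reached the lowest SNI value, and the PLM replicates lay close together (11.1 ± 0.425 TPM, SD, n = 3, against 28.3 ± 4.66). In the model fitted by limma across 15474 loci on log2(TPM + 1), Ednrb had a log2 fold change of -1.26 (SE 0.12, 95% interval -1.55 to -0.96, adjusted p = 0.00565). Median-centred, the change was -1.01 (SE 0.12, interval -1.30 to -0.72, adjusted p = 0.0294). Ednrb also met the study's calling rule, an unadjusted p below 0.05 with a log2 fold change beyond 1, on both scales. With the TPM rescaled without the 13 mitochondrial genes, it was -1.14 (adjusted p = 0.0190).

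Adjusted calls were common as deposited and scarce once centred. Of all loci tested, 13.6% were lower in PLM at an adjusted p below 0.05 as deposited and 0.685% when centred. The study's rule called 1.42% lower as deposited and 0.659% when centred. At an unadjusted p below 0.05, 35.8% of loci were lower and 1.28% higher as deposited, and 6.89% lower and 10% higher when centred. Only 1.24% of loci had a log2 fold change below that of Ednrb. The groups did not overlap, with PLM the lower, for 41.9% of loci as deposited and for 9.73% when centred, so that the separation of Ednrb by itself was a frequent pattern.

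The endothelin A receptor gene did not pass the test. Ednra stood at 1.64, 2.52 and 2.38 TPM in SNI and at 1.78, 2.93 and 2.33 TPM in PLM. The groups overlapped. Its log2 fold change was 0.07 as deposited (SE 0.19, interval -0.38 to 0.52, adjusted p = 0.796 by limma) and 0.32 centred (interval -0.12 to 0.75, adjusted p = 0.431). The receptors were compared directly within each sample, where scaling cancels apart from the pseudocount. Ednrb minus Ednra on the log2(TPM + 1) scale was 3.50, 3.25 and 2.85 in SNI and 2.13, 1.58 and 1.92 in PLM, a difference of -1.33 (SE 0.25). The groups did not overlap, and the exact two-sided permutation test gave p = 0.1, the smallest that 3 against 3 samples can give. Over the 9 such tests made, the adjusted p was 0.45. The B receptor made up 94.6%, 92.8% and 90.7% of the summed receptor TPM in SNI and 86.2%, 78.6% and 83.2% in PLM, so it remained the major receptor transcript in every sample.

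The peptide genes did not pass the test. Edn1, the gene of the peptide best known as an endothelial vasoconstrictor, stood at 3.82, 4.96 and 4.80 TPM in SNI and at 3.23, 3.92 and 3.13 TPM in PLM. PLM replicate 2 lay above SNI replicate 1, so the groups overlapped. The log2 fold change was -0.32 (SE 0.13, unadjusted p = 0.0453, adjusted p = 0.127 by limma) and, centred, -0.07 (adjusted p = 0.829). Edn3, the gene of the peptide that prefers the B receptor, stood at 3.50, 3.51 and 3.68 TPM in SNI and at 3.08, 2.80 and 4.05 TPM in PLM. PLM replicate 3 was above all SNI samples and the other PLM samples were below them. Its log2 fold change was -0.09 (interval -0.41 to 0.22, adjusted p = 0.620 by limma) as deposited and 0.15 (interval -0.14 to 0.44, adjusted p = 0.570) centred, a change of sign with the scale. Leaving out 1 library moved the deposited value between -0.21 (without PLM replicate 3) and -0.0074 (without PLM replicate 2).

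Of the converting enzymes, Ece1 fell in PLM on the deposited scale alone. Ece1, the main enzyme that cleaves big endothelin-1, stood at 17.66, 19.60 and 20.61 TPM in SNI and at 11.44, 13.24 and 15.45 TPM in PLM. The highest PLM value lay under the lowest SNI value, as for 41.9% of all loci. The log2 fold change was -0.50 (SE 0.12, interval -0.79 to -0.22, adjusted p = 0.0421 by limma), and centred it was -0.26 (unadjusted p = 0.0490, adjusted p = 0.293) with overlapping groups. The call was also lost when any library except PLM replicate 3 was left out, with log2 fold changes of -0.40 to -0.56 and adjusted p from 0.0775 to 0.117 in those 5 fits. Ece2, an enzyme that works at acidic pH and is known from neurons, stood at 13.74, 9.36 and 11.24 TPM in SNI and at 8.46, 9.18 and 11.02 TPM in PLM. The groups overlapped, and its log2 fold change was -0.23 as deposited (adjusted p = 0.306 by limma) and 0.02 centred (adjusted p = 0.963). Leaving out 1 library moved the deposited value from -0.10 (without SNI replicate 1) to -0.36 (without SNI replicate 2).

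In all, 2 of the 6 genes were lower in PLM than in SNI at an adjusted p below 0.05 as deposited and 1 of 6 when centred, with none higher on either scale, beside 13.6% and 0.685% of all loci lower. Over the 6 genes the log2 fold change had a median of -0.27 as deposited and -0.03 centred, beside -0.21 and 0.04 for all loci.

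**Figure D2:**
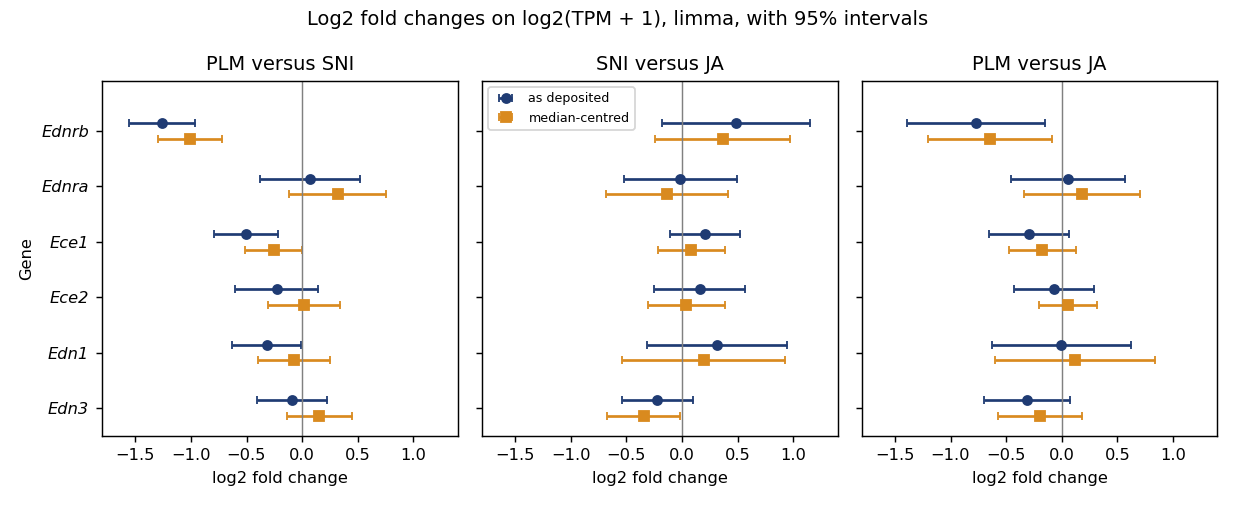
Log2 fold change of each gene on log2(TPM + 1) (horizontal axis) in the 3 comparisons, with 95% intervals from limma, as deposited (circles) and median-centred (squares). The Ednrb interval in PLM versus SNI ends at -0.96 as deposited and at -0.72 centred, and no interval in SNI versus JA excludes 0 as deposited.

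The injury itself moved none of the 6 genes past the test. Ednrb stood at 26.01, 23.66 and 12.28 TPM in JA (20.65 ± 7.34, SD, n = 3), against 23.33 to 32.58 in SNI. JA replicate 3 was the low sample and the other JA samples lay within the SNI range. The log2 fold change in SNI versus JA was 0.49 (SE 0.28, interval -0.18 to 1.16, adjusted p = 0.614 by limma), and 0.37 centred. As deposited it was 0.17 without JA replicate 3. Ednra (1.63, 3.00 and 2.07 TPM in JA) had a log2 fold change of -0.01 with an interval of -0.52 to 0.49, and -0.13 centred. Edn1 (2.07, 3.46 and 5.31 TPM in JA) had 0.32, with an interval of -0.31 to 0.94, and 0.19 centred. The deposited value of Edn1 was 0.05 without JA replicate 1 and 0.57 without JA replicate 3. Its JA samples spanned more than its SNI samples.

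Edn3 was the one gene whose JA and SNI samples did not overlap. It stood at 3.88, 5.20 and 3.99 TPM in JA, all above the 3.50 to 3.68 of SNI. The log2 fold change was -0.22 (interval -0.54 to 0.10, adjusted p = 0.614 by limma) as deposited and -0.34 (unadjusted p = 0.0431, adjusted p = 0.889) centred. Without JA replicate 2, the highest JA sample, it was -0.11 as deposited. Such a separation with SNI the lower was seen for 1.66% of loci as deposited and 6.87% when centred. Ece1 (16.80, 19.23 and 14.01 TPM in JA) and Ece2 (12.17, 9.26 and 8.90 TPM in JA) had log2 fold changes of 0.21 and 0.16 as deposited, with overlapping groups. Centred, these were 0.09 and 0.04. Leaving out 1 library took the deposited value of Ece1 from 0.09 (without JA replicate 3) to 0.31 (without JA replicate 2). That of Ece2 went from 0.03 (without SNI replicate 1) to 0.29 (without JA replicate 1). By limma, the background in this comparison was 0% of 15557 loci at an adjusted p below 0.05, 0.688% by the study's rule and 7.1% at an unadjusted p below 0.05. Of the 6 genes, 0 had an unadjusted p below 0.05 as deposited and 1, Edn3, when centred, where 4.83% of all loci did in either direction and 3.13% in the lower one.

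Against sham, Ednrb was again the gene that stood lowest in PLM, without passing the adjusted test. All PLM samples (10.73 to 11.58 TPM) were below all JA samples (12.28 to 26.01 TPM), a separation that 15.7% of loci showed as deposited and 6.93% when centred. The log2 fold change was -0.77 (SE 0.26, unadjusted p = 0.0223, adjusted p = 0.376 by limma), and centred -0.64 (adjusted p = 0.494). The background was 0.0195% of 15349 loci at an adjusted p below 0.05 in either direction and 10.5% lower at an unadjusted p below 0.05. Without JA replicate 3, the library with the low astrocyte sum, Ednrb was -1.09 with an adjusted p of 0.0356 by limma. The remaining log2 fold changes in PLM versus JA were 0.06 for Ednra, -0.00 for Edn1, -0.32 for Edn3, -0.30 for Ece1 and -0.07 for Ece2 as deposited, with adjusted p of at least 0.501. Centred, in the same order, they were 0.18, 0.12, -0.19, -0.17 and 0.05, with adjusted p of at least 0.649 by limma. The deposited value of Edn1 was 0.25 without JA replicate 3. Each pair of comparisons shares a group, so their values for a gene are not independent.

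The composition of the 6-gene total followed Ednrb. The summed TPM was 62.56, 63.81 and 46.56 in JA, 69.3, 72.53 and 66.04 in SNI and 39.12, 42.8 and 47.56 in PLM. Ednrb supplied 41.6%, 37.1% and 26.4% of it in JA, 41.8%, 44.9% and 35.3% in SNI and 28.5%, 25.1% and 24.3% in PLM. The PLM shares were below all SNI shares, and JA replicate 3 lay within the PLM range. The ratio of Ednrb to Ece1, the next gene in level, was 1.64, 1.66 and 1.13 in SNI, 1.55, 1.23 and 0.877 in JA and 0.973, 0.810 and 0.750 in PLM.

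**Figure D3:**
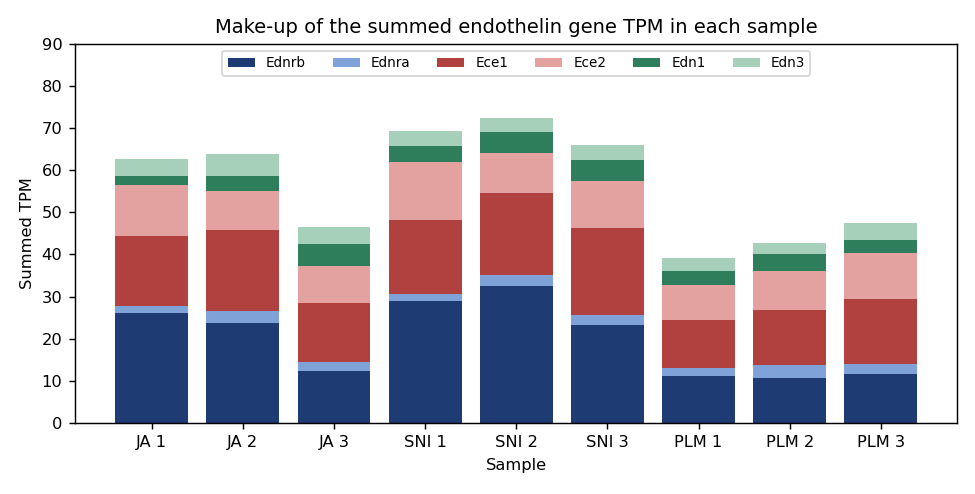
Stacked bars of the TPM of the 6 endothelin genes in each of the 9 samples (vertical axis, summed TPM from 0). The Ednrb segment is 23.33 to 32.58 TPM in SNI and 10.73 to 11.58 TPM in PLM, and JA replicate 3 has a segment of 12.28 TPM.

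Ednrb moved with astrocyte genes over the 9 samples. Of the 16 astrocyte markers, 15 were lower in PLM than in SNI at an adjusted p below 0.05 as deposited and 11 when centred, with none higher. Of all loci, 13.6% and 0.685% were lower. The list was chosen with earlier results of these data known, so these counts are a description. Their log2 fold changes ran from -1.95 to -0.47 with a median of -1.35 as deposited, and 9 of the 16 lay below that of Ednrb. The summed astrocyte markers were 7326 to 8610 TPM in SNI, 4068 to 4695 in PLM and 5193 to 8350 in JA. In bulk tissue, fewer cells of a type and less RNA per cell cannot be told apart. The part of the astrocyte and Schwann cell markers in the change of Ednrb was not tested beyond the within-sample differences that follow.

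Set against the mean of those 16 markers within each sample, Ednrb showed little difference between the groups. Ednrb minus the marker mean on log2(TPM + 1) was -2.28, -2.13 and -2.34 in SNI, -2.35, -2.28 and -2.05 in PLM and -2.43, -2.16 and -2.33 in JA. All groups overlapped. PLM minus SNI was 0.02 (SE 0.11, exact two-sided permutation p = 0.9), SNI minus JA 0.06 (SE 0.10, p = 0.6) and PLM minus JA 0.08 (SE 0.12, p = 0.6).

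Profiles were then compared as the root mean square (RMS) difference of median-centred log2 values over the 9 samples, each gene set to its own mean. This is a description over samples that share 3 groups, and it carries no test. The RMS depends on how widely each profile varies as well as on its shape. The profile of Ednrb was 0.12 from the astrocyte mean and 0.45 from the next list, oligodendrocyte precursors, while its own spread over the samples was 0.49. Even JA replicate 3, low in its group, was low in both. The 5 nearest single genes were Fjx1 (RMS 0.068), Pamr1 (0.106), S1pr1 (0.107), Fam20a (0.109) and C1qtnf5 (0.113), none of them in the marker list. S1pr1, a sphingosine-1-phosphate receptor, stood at 56.06, 64.71 and 48.24 TPM in SNI and at 27.00, 22.81 and 26.70 TPM in PLM. Fjx1 stood at 20.92, 21.74 and 16.15 TPM in SNI and at 8.05, 7.30 and 7.52 TPM in PLM.

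Ednra lay nearest to the vascular lists instead. Its profile was 0.14 from the mean of 11 vascular smooth muscle and pericyte markers and 0.14 from that of 11 endothelial markers, against 0.68 from astrocytes and an own spread of 0.26. The oligodendrocyte (0.20), microglial (0.22) and ependymal (0.23) means also lay closer than that spread, so the likeness was not particular to vascular cells. Both the mural mean and Ednra were highest in JA in replicate 2, whose summed mural markers were 690 TPM against 402 and 454 in the other JA samples. The means of the endothelial, oligodendrocyte, oligodendrocyte precursor, microglial and ependymal lists were also highest in JA in that replicate. None of the 11 mural markers was called by limma in PLM versus SNI on either scale, with 2 higher at an unadjusted p below 0.05 on each. At that level 1.28% of all loci were higher as deposited and 10% when centred. Of the 11 endothelial markers, 0 were called as deposited (2 higher at an unadjusted p below 0.05) and 1, Tie1, was higher when centred (log2 fold change 0.56, adjusted p = 0.0357 by limma). On the centred scale 6 of the 11 endothelial markers were higher at an unadjusted p below 0.05, against 10% of all loci. None was below 0 on that scale, where 42.4% of all loci were. The genes nearest to Ednra were Ribc2, Pdgfb, the gene of a platelet-derived growth factor chain, and Prorsd1, at RMS values of 0.088 to 0.104.

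**Figure D4:**
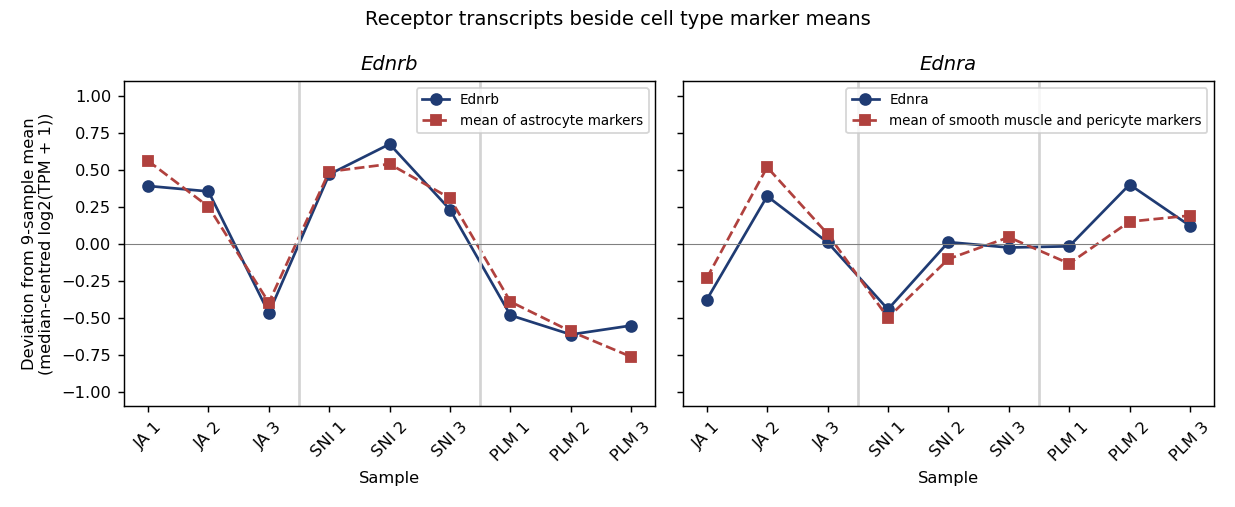
Deviation of each sample from the gene's 9-sample mean (vertical axis, median-centred log2(TPM + 1)) for Ednrb with the mean of 16 astrocyte markers and for Ednra with the mean of 11 vascular smooth muscle and pericyte markers. The lines of Ednrb and the astrocyte mean lie an RMS of 0.12 apart, with JA replicate 3 and all PLM samples below 0.

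The peptide and enzyme genes lay nearest to other lists. Edn1 was nearest to the oligodendrocyte mean, at an RMS of 0.30 that was hardly below its own spread of 0.32, and it was 0.36 from the endothelial mean. Its nearest single genes, Shbg, Pdcd5 and Glipr1, were at 0.167 to 0.172. Edn3 was 0.12 from the microglial and 0.13 from the oligodendrocyte mean, with an own spread of 0.20, and the genes named as near to it were Niban1 and Ltbp4, at 0.080 and 0.084. Ece1 and Ece2 were nearer to a flat line than to any marker mean. Their own spreads were 0.17 and 0.15, and their nearest lists were oligodendrocyte precursors at 0.18 and neurons at 0.19. With spreads this small, the measure favours lists that vary little, so the nearest list does not tell which cell type either gene follows. The genes nearest to Ece1 were Acox3, Nfkb1 and Arhgap1, and those nearest to Ece2 were Etl4, Asic1 and Ubfd1, at 0.055 to 0.065. The RMS between Ednrb and Ece1, the pair called as deposited, was 0.40, and that between the receptors was 0.65.

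**Figure D5:**
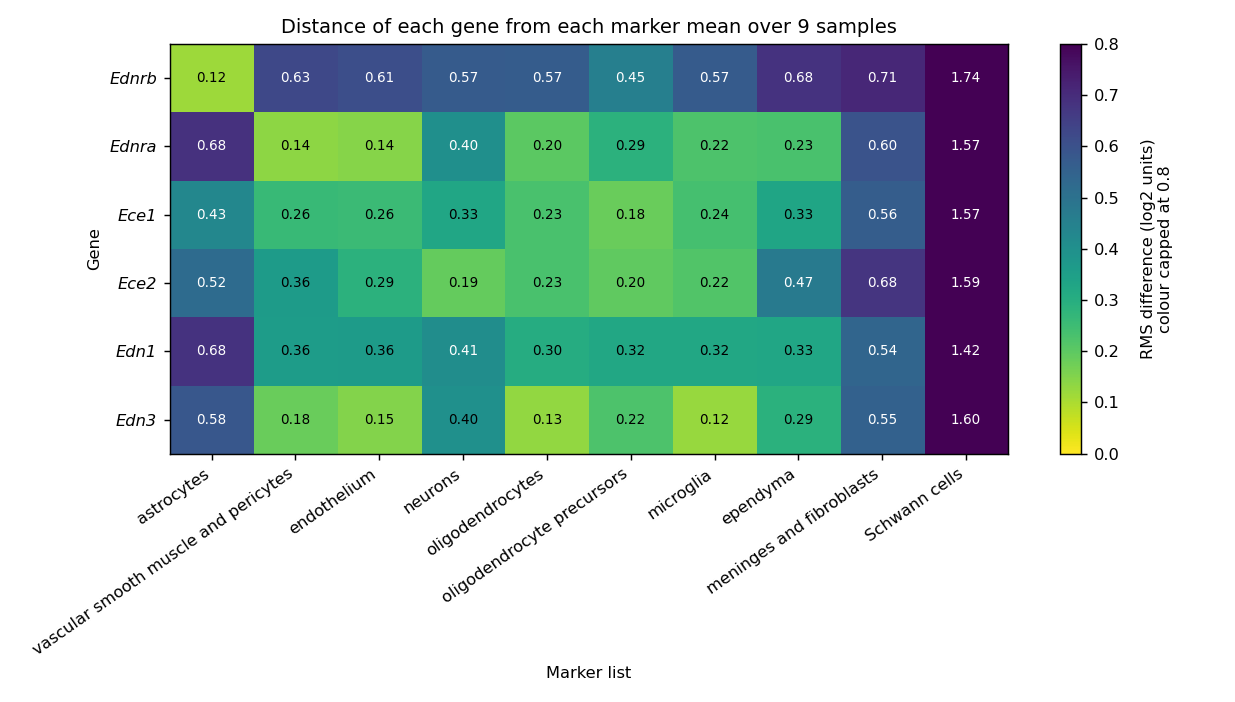
RMS difference (log2 units, number and colour) between the median-centred profile of each endothelin gene (rows) and the mean profile of each marker list (columns) over 9 samples, where a smaller number means a closer profile. Ednrb has its lowest value, 0.12, with astrocytes, and Ednra its lowest, 0.14, with the vascular lists. The Schwann cell list, with a spread of 1.56, is far from all 6 genes, which so wide a spread gives whatever its shape.

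Few genes of the other marker lists passed the test in PLM versus SNI. As deposited, 0 of 12 neuron, 0 of 10 oligodendrocyte, 0 of 5 oligodendrocyte precursor, 0 of 6 Schwann cell, 0 of 5 ependyma and 0 of 6 lumbar Hox genes tested were called by limma, against 4, 2, 3, 0, 0 and 0 at an unadjusted p below 0.05. These were lower, apart from 1 of the 2 oligodendrocyte markers, which was higher, and 35.8% of all loci were lower at that level. The 6 Schwann cell markers were all below 0 as deposited, where 85% of all loci were. Their log2 fold changes were -0.81 to -0.60 with a median of -0.66 as deposited (-0.41 centred), beside -0.21 for all loci. In the remaining lists, 1 of 9 microglial genes (Tmem119) and 2 of 6 meninges and fibroblast genes (Igf2 and Slc6a13) were lower, and none of those was called when centred. All 6 meninges and fibroblast genes were below 0 as deposited, beside 85% of all loci, with a median of -0.61 (-0.36 centred). When centred, 5 of 10 oligodendrocyte and 5 of 9 microglial markers were higher at an unadjusted p below 0.05, against 10% of all loci, and none of them passed the adjusted test. By limma, no marker of any list was called in SNI versus JA or in PLM versus JA. At an unadjusted p below 0.05, none of the 16 astrocyte markers differed in SNI versus JA, whereas 12 of the 16 were lower in PLM versus JA, against 10.5% of all loci. Of the meninges and fibroblast genes, 4 of 6 were lower at that level in PLM versus JA, with a median log2 fold change of -1.01 beside -0.91 for the astrocyte markers.

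The wider pathway was read from 45 listed genes of endothelin processing, receptor coupling and signaling, of which 43 loci were tested. In PLM versus SNI, 10 were lower and 0 higher as deposited, with a median log2 fold change of -0.29 beside -0.21 for all loci. When centred, 1 was lower and 1 higher, with a median of -0.04 beside 0.04. By role, as deposited, the lower genes were 0 of 7 in peptide processing and clearance (3 at an unadjusted p below 0.05, where 35.8% of all loci stood), 4 of 10 G protein subunit loci, 3 of 16 phospholipase C, calcium and kinase effectors, 2 of 8 receptor kinases, arrestins and RGS proteins, and 1 of 2 endothelin receptor-like receptors. That share, like that of the 6 genes, is to be read against the 13.6% of all loci called lower.

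Of the receptor-like genes, 1 of 2 passed the test. Gpr37l1 and Gpr37 encode receptors that resemble the B receptor in sequence and that are known from astrocytes and oligodendrocytes, respectively. Gpr37l1 stood at 128.53, 122.90 and 104.17 TPM in SNI, at 42.23, 41.27 and 37.62 TPM in PLM and at 123.42, 81.85 and 49.61 TPM in JA. All PLM samples were below every other sample. As deposited, PLM lay wholly below SNI for 41.9% of loci and wholly below JA for 15.7%. Its change in PLM versus SNI, on the log2 scale, was -1.53 (adjusted p = 0.00396 by limma), and -1.28 centred (adjusted p = 0.0263). Gpr37 stood at 156.67, 149.86 and 142.76 TPM in SNI and at 146.51, 144.38 and 143.53 TPM in PLM. The Gpr37 groups overlapped as deposited, with a log2 fold change of -0.05 (adjusted p = 0.545 by limma). When centred, all PLM values lay above all SNI values, with a change of 0.20 (unadjusted p = 0.0158, adjusted p = 0.191). On that scale 10% of all loci were higher at an unadjusted p below 0.05. The share of loci separated with PLM the higher was not counted.

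The change of Ednrb was smaller than that of Gpr37l1, by a margin that did not pass the test. Ednrb minus Gpr37l1 within each sample was -2.11, -1.88 and -2.11 in SNI and -1.83, -1.85 and -1.62 in PLM, with no overlap. The difference was 0.27 (SE 0.11, exact two-sided permutation p = 0.1, the smallest possible, 0.45 adjusted over the 9 tests).

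Of the signaling genes, Gnai2, an inhibitory G protein alpha subunit, and Plcb1, a phospholipase C that acts downstream of Gq, had the smallest p after Gpr37l1. Gnai2 stood at 198.00, 204.87 and 196.51 TPM in SNI and at 139.70, 151.29 and 158.62 TPM in PLM, a log2 fold change of -0.41 (adjusted p = 0.0176 by limma). Plcb1 stood at 6.78, 6.25 and 5.58 TPM in SNI and at 2.93, 3.05 and 4.12 TPM in PLM, a log2 fold change of -0.73 (adjusted p = 0.0269 by limma). Neither gene's groups overlapped, with PLM the lower, as for 41.9% of all loci as deposited. Neither passed when centred (Gnai2 -0.17, adjusted p = 0.199, and Plcb1 -0.48, adjusted p = 0.120). The gene higher when centred was Rgs4, which speeds the shut-off of G proteins, with a log2 fold change of 0.41 (adjusted p = 0.0440 by limma) that was 0.16 (adjusted p = 0.165) as deposited. In SNI versus JA and in PLM versus JA, 0 of the 43 loci passed the adjusted test by limma, with 1 and 8 loci at an unadjusted p below 0.05 as deposited. The 1 in SNI versus JA stands beside 7.1% of all loci in either direction, and the 8 in PLM versus JA, all lower, beside 10.5% of all loci lower. When centred, 2 loci were lower and 1 higher at that level in SNI versus JA, beside 3.13% and 1.7% of all loci, and 4 were lower and 1 higher in PLM versus JA, beside 4.72% and 5.26%.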

How the data were processed

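RNA of L3-L6 spinal cord from 9 rats, 3 per group, was measured by RNA-seq. The authors deposited 1 table of TPM values per Ensembl rat gene, which they made with fastp 0.19.5, CASAVA and StringTie per the labels' processing notes. Those notes name the human build GRCh38.p13, so the rat build is not given in the sources used here. TPM keeps no depth, and no count error can be attached. All 9 value columns matched a sample label, and 0 did not.

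Loci averaging 1 TPM or more in the 6 samples of a comparison were fitted on log2(TPM + 1) with limma 3.58.1 (R 4.3.3, eBayes with trend), groups 2 at a time, with Benjamini-Hochberg adjustment over all loci and calls at an adjusted p below 0.05. The study's rule (p below 0.05 and a log2 fold change beyond 1) stands beside it. Fold changes on this scale understate those of low genes. Centring subtracted each sample's median over the loci tested. Within-sample differences were tested by exact two-sided permutation. The code was tested on simulated data. The labels call the samples biological replicates.

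All 6 members are named. Of the wider pathway, the text names genes past the adjusted threshold, at most the 3 with the smallest p per comparison, plus Edn2, Gpr37 and Gpr37l1. Rgs4, Tie1, Tmem119, Igf2, Slc6a13 and Hoxd11 were named after their values were seen. For likeness, the 3 nearest loci are named, 5 for Ednrb, except 1 locus for Edn3 that is not reported here. Members, marker lists and pathway lists were chosen with earlier results of these data known. Alternatives changed the scaling, pseudocount, filter, samples in the fit, variance model, replicate block and each library in turn.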

Additional observations from a re-analysis of the deposited data

How the results depend on the processing

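TPM values without depth and 3 rats per group limit precision, and small changes of the low genes (Ednra, Edn1, Edn3) could not be resolved. Under the alternatives run, Ednrb in PLM versus SNI kept its direction (log2 fold change -1.38 to -1.01) and an adjusted p below 0.05 except with the replicate block on median-centred values, where it was -1.01 with an adjusted p of 0.121 and 0 members, like 0 of all 15474 loci, were called. The samples share only a number: deviations of same-numbered samples correlated from -0.051 to 0.123. With the replicate block 152 loci were called, against 2148 without it, and 1 member (Ednrb, adjusted p = 0.0325). With 3 numbers, not every sample correlated best with its own. The count of members called, 2, was 1 with median-centred values, without the 13 mitochondrial genes, with quantile normalization, without the filter, with all 9 samples in 1 fit, with no trend and by the study's rule, and 1 to 2 without each library in turn. It was 2 with a pseudocount of 0.1 and with 1 TPM required in every sample. Ece1 was the gene lost, with adjusted p from 0.0564 to 0.343 in those settings that keep all libraries and lose it. The count for PLM versus JA ran from 0 to 1, the 1 arising without JA replicate 3.

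Several values near 0 changed sign. Edn3 in PLM versus SNI was 0.15 when centred, with the block or without, 0.022 without mitochondrial genes and 0.13 after quantile normalization. Ece2 in PLM versus SNI was 0.017 when centred, with the block or without, and 0.019 after quantile normalization. Edn1 in PLM versus JA was 0.12 when centred, with the block or without, 0.047 without mitochondrial genes, 0.11 after quantile normalization and 0.016 with a pseudocount of 0.1. Ece2 in PLM versus JA was 0.054 when centred, with the block or without, and 0.061 after quantile normalization. Ednrb relative to the astrocyte mean in PLM versus SNI was -0.0038 with a pseudocount of 0.1. Leaving out each library in turn gave -0.058 to 0.20 for Ednra in PLM versus SNI, -0.15 to 0.15 for Ednra in SNI versus JA, -0.081 to 0.22 for Ednra in PLM versus JA, -0.27 to 0.25 for Edn1 in PLM versus JA and -0.17 to 0.059 for Ece2 in PLM versus JA, and likewise -0.069 to 0.082 for Ednrb relative to the astrocyte mean in PLM versus SNI, -0.0030 to 0.13 for Ednrb relative to the astrocyte mean in SNI versus JA, -0.010 to 0.15 for Ednrb relative to the astrocyte mean in PLM versus JA and -0.20 to 0.031 for Ednrb relative to Gpr37l1 in SNI versus JA. The causes were not tested. The nearest profiles are unchanged by centring each sample or not, by construction of the measure.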
